A study of Mus musculus with 7 samples.

Results

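Chromatin precipitated with an antibody to the V5 tag of a tagged MOZ protein and sequenced (ChIP-seq) was compared, gene by gene, with the input chromatin of the same genotype. The tissue was the first 2 pharyngeal arches of mouse embryos of strain C57BL/6, taken at E10.5. Genes were included when they held 70 or more read counts over the 3 ChIP libraries and the input together. This left 14727 of 27179 genes, of which 13357 are protein coding, 864 are long non-coding RNA genes and 142 are pseudogenes. The tagged embryos were homozygous for a Moz allele whose last coding part was fused in frame to a Flag-V5-BIO tag, so that the tagged protein is made from its own locus. Mice with this allele are described as viable and fertile. There were 3 ChIP libraries (V5 replicates 1 to 3) and 1 input library, which is chromatin that did not pass through the antibody. Wild-type arches of the same stage and strain, which carry no V5 epitope, gave 3 libraries with the same antibody. They are set beside the V5 values as the background of the precipitation. No label says whether replicates came from separate embryos or pools, and the p-values therefore reflect library-to-library spread that may be technical.

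MOZ, also called KAT6A, is the catalytic subunit of a histone acetyltransferase complex of the MYST family, in which BRPF scaffolds, ING5 and MEAF6 hold the enzyme on chromatin. Acetylated histones of this kind mark the promoters of active genes, and loss of MOZ is known to shift Hox gene domains and to give heart and craniofacial defects through genes such as Tbx1. The arches consist largely of neural crest mesenchyme around a core of mesoderm, covered by ectoderm and lined by endoderm. In ChIP-seq the input shows how many reads a stretch of the genome gives without any selection, so the ratio of ChIP to input is the usual measure of occupancy. The deposited lengths match the whole span of the gene for 68.4% of members that have a symbol. Most values thus average over exons and introns and leave out reads upstream of the gene.

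Depth was 806648, 1138431 and 3286602 counts in the V5 libraries, 1288732 to 2504595 in wild type, and 3488745 for the input. Levels are given as CPM, the counts of a gene per 1e6 of its library's total. The floor of a gene at 0 counts, from counting error alone, was 3.72 CPM in V5 replicate 1, against 0.860 CPM in the input. Among members, 231 had 0 counts in V5 replicate 1, 137 in V5 replicate 2 and 0 in V5 replicate 3. The inclusion threshold fell among genes of low level: the 704 genes with 70 to 79 counts had a median of 8.17 CPM in the input, and the 737 genes just outside, with 60 to 69 counts, had 7.45. One gene, Chl1, took 5.97% of the input and 2.12% to 3.51% of the ChIP libraries. Wild-type replicate 2 held 2.77% of its counts on chromosome X, against 3.94% to 4.51% in the other libraries.

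Few genes of the tagged arches passed a test against the input. The median log2 ratio of the V5 mean to the input was 0.03 over all members, and -0.03 for the wild-type libraries, a value that scaling to library totals holds near 0. Among single V5 libraries it was -0.19, -0.02 and 0.03. With edgeR's quasi-likelihood test, 0 genes (0.0% of 14727) were higher than the input and 8 (0.0543%) fell below it at an adjusted p under 0.05. At an unadjusted p under 0.05 there were 291 higher genes (1.98%) and 263 lower genes (1.79%). The test rests on 1 input library, which is assumed to vary like the ChIP libraries. A departure of the ChIP and a departure of this input thus cannot be told apart. Against the input, DESeq2 gave an adjusted p for only 2735 of the 14727 genes. DESeq2 called 2 genes higher and 13 lower. Leaving out 1 V5 library gave 4 to 20 higher and 10 to 78 lower genes, with the most of both when replicate 1, the shallowest, was left out.

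As a description without a test, 3037 members (20.6%) lay above the input in all 3 V5 libraries and 3609 (24.5%) lay below it in all 3. The other 8081 (54.9%) had V5 libraries on both sides. All 3 ratios of a gene share the same input value. Among libraries that did not differ, the input would also be the lowest or the highest in many genes. These shares therefore do not by themselves show a shift of the ChIP. A margin of 1.5-fold or more in all 3 libraries was reached by 627 genes above (4.26%) and 905 below (6.15%). A margin of 2-fold or more in all 3 libraries was reached by 170 genes above (1.15%) and 303 below (2.06%). All 3 values lay above the exact 95% Poisson interval of the input count in 1678 genes (11.4%) and below it in 2118 (14.4%). In the wild-type libraries, 3708 members (25.2%) lay above and 4543 (30.8%) below the same input in all 3. The shallow V5 libraries scattered more widely around the input: 26.3% of members were more than 1 log2 unit below it in V5 replicate 1, 20.2% in V5 replicate 2 and 5.68% in V5 replicate 3.

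**Figure D1:**
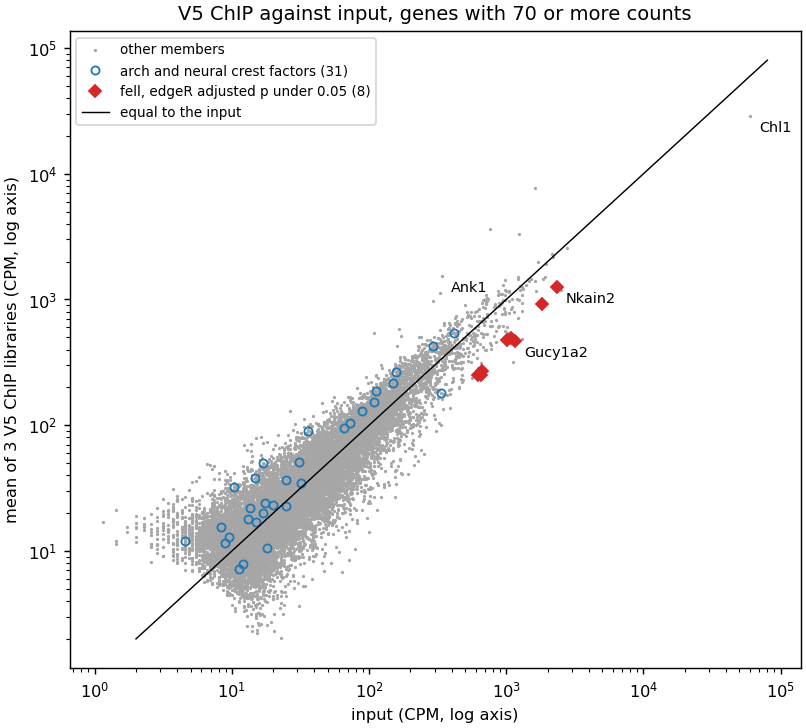
Mean CPM of the 3 V5 ChIP libraries (vertical, log axis) against the CPM of the input (horizontal, log axis) for the 14727 genes with 70 or more counts. Each dot is 1 gene, open circles are the 31 arch and neural crest factors, diamonds are the 8 genes that fell and the line marks equal levels. Most genes follow the line, Chl1 stands at the far right below it, and Ank1 stands above it.

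The 8 genes that fell were Gucy1a2, Catsperb, Myo3a, Gm7135, Cpq, Gpr158, Sntg1 and Nkain2. Gucy1a2, a subunit of the soluble guanylate cyclase that senses nitric oxide, lies at chr9:3532349-3905791 (mm10) and spans 373 kb. Its level was 479.8, 458 and 469 CPM in V5 and 1160.0 in the input, whose 95% Poisson interval was 1125 to 1196. All 3 ChIP values thus lay far under the input and close to each other. This is 2.47-fold lower on the mean, a log2 difference of -1.27 (SE 0.21) with an edgeR adjusted p of 0.0122. The wild-type libraries had 439, 406 and 426 CPM, and V5 against wild type gave 0.16 (edgeR adjusted p = 0.961). Catsperb, a subunit of the sperm calcium channel (chr12:101404645-101626009), had 281, 242 and 228 CPM in V5, 244, 261 and 226 in wild type, beside 656 in the input, a log2 difference of -1.35 (SE 0.26) with an edgeR adjusted p of 0.046. The V5 and wild-type values of Catsperb overlapped, and every one of them was under the input. Myo3a, an unconventional myosin of hair cells, had 259, 214 and 277 CPM against 619 in the input (wild type 303, 253 and 288). Gpr158, an orphan receptor of the brain, had 459, 475 and 490.5 against 1021 (wild type 419.8, 466 and 478). For these 2 genes the ChIP libraries of both genotypes again overlapped below the input.

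Cpq, a secreted carboxypeptidase, had 364, 594 and 532 CPM in V5 and 1079.8 in the input, so replicate 1 was the lowest of the V5 libraries; wild type had 530.0, 526 and 512. The predicted gene Gm7135 had 281, 250.3 and 278 CPM against 660.1 (wild type 344, 276 and 236). Sntg1, a syntrophin of neurons, had 941, 877 and 942 against 1829 (wild type 972, 1035 and 1040.1), and Nkain2, a partner of the sodium pump, had 1267, 1209.6 and 1288 against 2335 (wild type 1275, 1382 and 1348). Their edgeR adjusted p-values ran from 0.046 to 0.0474. All 8 are long, from 221 to 1201 kb, beside a median of 29.8 kb over all members. Each was called under 6 to 8 of 10 other settings, and none was called when DESeq2's size factors replaced those of edgeR or when the likelihood ratio test was used.

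To show the starts of such genes beside those of arch regulators above the input, the 250 bases upstream of 4 gene starts are printed 5′ to 3′ on the strand of the gene, from RefSeq GRCm38.p6 (the assembly of mm10), with CpG dinucleotides in capitals. Lhx8, a LIM homeobox gene of the oral mesenchyme, and Zeb2, a neural crest repressor, lay above the input in all 3 V5 libraries, and Gucy1a2 and Gpr158 fell. They are the 2 of smallest edgeR p in each group whose upstream bases overlap no gene of the table. The windows lie at chr3:154330561-154330810 (minus strand), chr2:45117443-45117692 (minus strand), chr9:3532099-3532348 (plus strand) and chr2:21367317-21367566 (plus strand).
Lhx8: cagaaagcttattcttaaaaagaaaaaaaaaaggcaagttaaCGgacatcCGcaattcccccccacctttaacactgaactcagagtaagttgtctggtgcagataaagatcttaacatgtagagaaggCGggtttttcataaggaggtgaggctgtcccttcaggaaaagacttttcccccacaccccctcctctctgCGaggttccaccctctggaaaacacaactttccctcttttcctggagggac
Zeb2: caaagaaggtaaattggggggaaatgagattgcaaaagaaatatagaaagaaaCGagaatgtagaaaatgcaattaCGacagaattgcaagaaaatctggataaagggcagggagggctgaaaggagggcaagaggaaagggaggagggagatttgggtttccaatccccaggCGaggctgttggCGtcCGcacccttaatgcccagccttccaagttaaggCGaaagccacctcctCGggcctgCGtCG
Gucy1a2: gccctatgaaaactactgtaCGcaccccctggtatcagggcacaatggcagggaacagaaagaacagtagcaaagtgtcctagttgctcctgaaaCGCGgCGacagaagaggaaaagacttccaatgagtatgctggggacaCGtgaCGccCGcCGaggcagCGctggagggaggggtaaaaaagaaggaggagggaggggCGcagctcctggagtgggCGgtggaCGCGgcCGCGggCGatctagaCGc
Gpr158: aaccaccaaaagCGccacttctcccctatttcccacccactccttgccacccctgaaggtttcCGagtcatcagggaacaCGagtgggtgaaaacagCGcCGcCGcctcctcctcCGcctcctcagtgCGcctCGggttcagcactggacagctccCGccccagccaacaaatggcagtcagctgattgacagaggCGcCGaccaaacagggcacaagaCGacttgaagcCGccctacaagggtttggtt
The Gucy1a2 sequence holds 17 CpG, the Gpr158 sequence 14, the Zeb2 sequence 9 and the Lhx8 sequence 4. A GC box (GGGCGG or its reverse complement CCGCCC, both strands searched) occurs 1 time at Gucy1a2 and 2 times at Gpr158, and 0 times in the others. Over 27025 upstream windows of the same length, 1 per gene at its most upstream start, 33.0% held a GC box and the median was 6 CpG. The median was 14 CpG in members above the input, 12 in members below and 13 in all members, so the order of the 4 printed windows is not that of the sets. Of 2357 members above the input in all 3 V5 libraries that have a window, 52.9% held a GC box, and of 2766 below it, 47.1%; over all 11353 members with a window it was 51.0%. The 4 printed windows lie outside the RefSeq spans of the genes. The stretches counted by the depositors are not given, so it is not known whether counted reads came from these windows.

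Among genes with the smallest p above the input, none passed. Ank1, which encodes the ankyrin of the red cell membrane (chr8:22974836-23150501), had 2095, 1308 and 1202 CPM in V5 and 342 in the input, 4.49-fold on the mean (log2 difference 2.22, SE 0.40, edgeR adjusted p = 0.234). All 3 V5 values were at least 3 times the input. Wild type had 1686, 1659 and 515 CPM, of which replicate 3 stood well below the other 2. Ank1 lies next to the tagged locus: Kat6a ends 31.6 kb before it, with 0 genes of the table between them. Kat6a itself (chr8:22859442-22943259) had 90.5, 182 and 95.2 CPM in V5, 103, 117 and 87.0 in wild type, beside 60.8 in the input, 2.02-fold and 1.68-fold over the input on the mean. Its V5 and wild-type values overlapped (V5 against wild type 0.27, edgeR adjusted p = 0.97), and the test against the input gave an adjusted p of 1.00. Within 1 Mb on either side of Kat6a, 9 of 24 members, Kat6a and Ank1 among them, lay above the input in all 3 V5 libraries and 3 below. Of all members 20.6% lay above and 24.5% below, and of those on chromosome 8 21.0% and 24.3%. All 3 wild-type libraries also lay above the input in Kat6a, Ank1, Mrps31, Slc20a2, Polb and Golga7 of these 9. They lay on both sides in Atp7b, Thsd1 and Ikbkb, and above it in Slc25a15, Gpat4 and Zmat4, where V5 was on both sides.

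Leprot, a small membrane protein of endosomes, had 120.3, 71.2 and 44.4 CPM in V5, 96.2, 114 and 39.1 in wild type, beside 14.9 in the input (edgeR adjusted p = 0.407). Gtf2i, a transcription factor of the Williams syndrome interval, had 659.5, 588 and 298 against 170.3 (wild type 703, 685 and 278), and the zinc transporter gene Slc30a4 had 164, 226 and 115 against 55.6 (wild type 199, 130.3 and 89.0). In these 3 genes V5 replicate 3 was the lowest of its group and wild-type replicate 3 the lowest of its own. Tighter were the long genes Plcb4, a phospholipase, with 296, 299 and 266 CPM against 125, the adhesion molecule gene Cadm1, with 384, 261 and 262 against 122, and Myt1l, a neuronal zinc finger gene, with 384, 338 and 329 against 168. Sox6, a regulator of cartilage and red cells, had 691, 584 and 601 CPM against 351 in the input and 512, 518 and 629 in wild type. Npas3, a brain transcription factor, had 695, 744 and 762 against 432 (wild type 802, 710.4 and 799.7). The edgeR adjusted p-values of these 12 genes, which also include Zfp407, Ntm and Kcnma1, ran from 0.234 to 0.407.

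**Figure D2:**
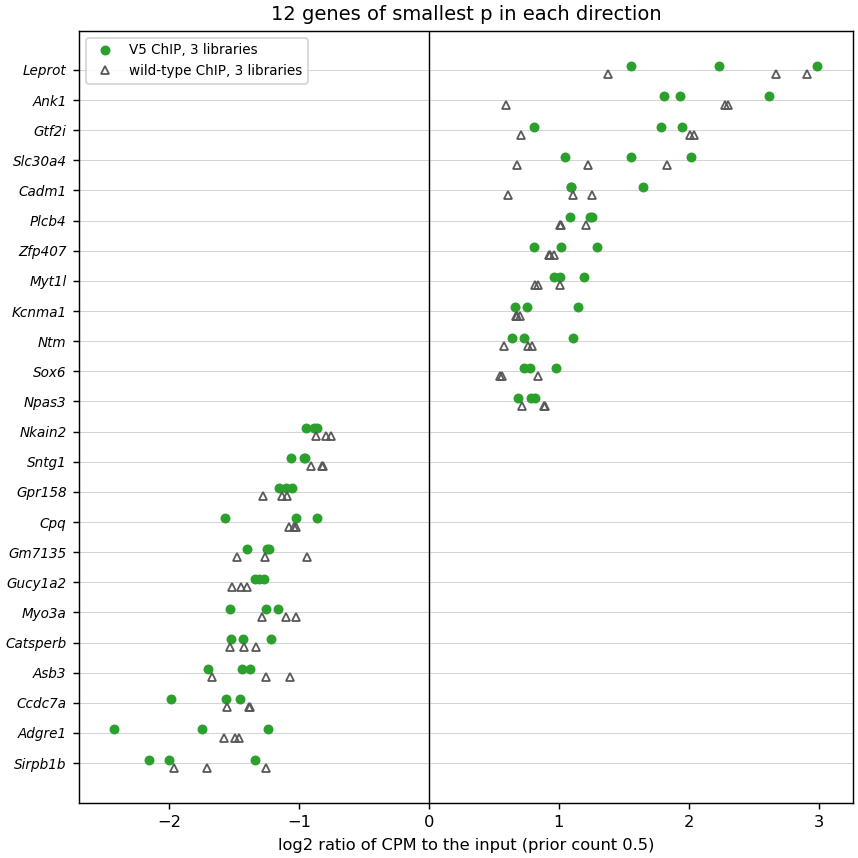
Log2 ratio of CPM to the input (horizontal, with a prior count of 0.5) for the 12 protein-coding genes of smallest edgeR p in each direction. Filled circles are the 3 V5 libraries and open triangles the 3 wild-type libraries; 8 of the lower genes passed and none of the upper. Wild-type points lie beside the V5 points, and both share the 1 input.

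Several of the largest ratios to the input came from genes with few counts. Csn1s1, a milk casein gene, had 66.9, 35.1 and 32.9 CPM in V5 and 7.17 in the input (wild type 23.3, 44.4 and 40.3, edgeR adjusted p = 0.772). Areg, an EGF receptor ligand, had 22.3, 22.0 and 13.1 against 3.15 (wild type 13.2, 9.79 and 9.98), and Lpar4, a lysophosphatidic acid receptor, had 6.2, 6.15 and 21.6 against 1.43 (wild type 21.7, 12.1 and 25.6). The input held 25 counts of Csn1s1, 11 of Areg and 5 of Lpar4, so the error of each ratio is wide. In the other direction Vsig4, a complement receptor of macrophages, had 19.8, 25.5 and 34.7 CPM against 154 (wild type 40.3, 36.9 and 40.3, edgeR adjusted p = 0.0759). Serpinb9h, a serine protease inhibitor of a multi-copy cluster, had 9.92, 5.27 and 15.8 against 79.1 (wild type 10.1, 20.3 and 27.2). Adgre1, the F4/80 antigen gene of macrophages, had 62.0, 99.3 and 141 against 333 (wild type 118, 111 and 121, edgeR adjusted p = 0.0646).

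Genes that regulate arch development stood above the input more often than members as a whole. Of 47 listed transcription factors of arch mesenchyme and neural crest, 31 were members; 18 (58.1%) lay above the input in all 3 V5 libraries, beside 20.6% of all members, and 3 (9.68%) below, beside 24.5%. Their median log2 ratio was 0.53, beside 0.03 for all members, and 0 of 31 passed edgeR's test. In whole arches, a ratio shared by all cells cannot be told apart from one carried by some of them. The wild-type libraries gave 16 above, 7 below and a median of 0.41 over the same 31 genes and the same input. Of all members, 25.2% lay above and 30.8% below in wild type. Shares for members of like read density in the input are given further on. Summed over all listed genes, the ratio to the input was 1.24, 1.35 and 1.31 in V5 and 1.29, 1.25 and 1.36 in wild type, and the groups overlapped. Among genes over 10 kb the share above the input went up with length, as described further on, so the list was also read by length: 0 of 2 members of 1 to 3 kb lay above in all 3 (17.1% of all members of that length), 1 of 3 of 3 to 10 kb (14.6%), 5 of 11 of 10 to 30 kb (14.0%), 4 of 6 of 30 to 100 kb (20.6%), 5 of 6 of 100 to 300 kb (39.8%) and 3 of 3 over 300 kb (49.3%).

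Prrx1, a homeobox gene of limb and facial mesenchyme, had 103, 96.6 and 68.2 CPM in V5, 49.7, 66.3 and 73.1 in wild type, beside 35.8 in the input. Each V5 value was at least 1.5 times the input, and the lowest V5 value lay inside the wild-type range. Pax9, a paired-box gene of the pouches and the jaw, had 55.8, 19.3 and 21.3 CPM against 10.3 (wild type 13.2, 8.29 and 17.6), with replicate 1 far above the others. Lhx8 had 31, 103 and 17.0 against 16.9 (wild type 38.8, 21.1 and 21.6), so replicate 2 carried most of its ratio and replicate 3 was level with the input. Tfap2b, a neural crest factor, had 37.2, 55.3 and 22.2 against 14.6 (wild type 33.4, 25.6 and 25.2). In Pax9 and Lhx8, 1 V5 library thus stood apart from the other 2.

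Meis1 and Meis2, TALE homeobox partners of Hox proteins, both lay above. Meis1 had 124, 131 and 135 CPM in V5, 115, 136 and 124 in wild type, beside 89.1 in the input. Meis2 had 145, 242 and 176 CPM in V5, 188, 203 and 204 in wild type, beside 112 in the input. In both genes the V5 and wild-type values overlapped. The forkhead gene Foxp1 had 418, 397 and 459 CPM against 293 (wild type 378, 451 and 438). Others above in all 3 V5 libraries were Alx1, Ets1, Foxc1, Foxp2, Nr2f1, Pax3, Pbx3, Twist2 and Zeb2. Zeb1, a repressor of epithelial genes, was one of the 3 below, with 209.5, 149 and 185 CPM against 335 and 207, 236 and 190.4 in wild type; Pitx1 and Six4 were the others.

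**Figure D3:**
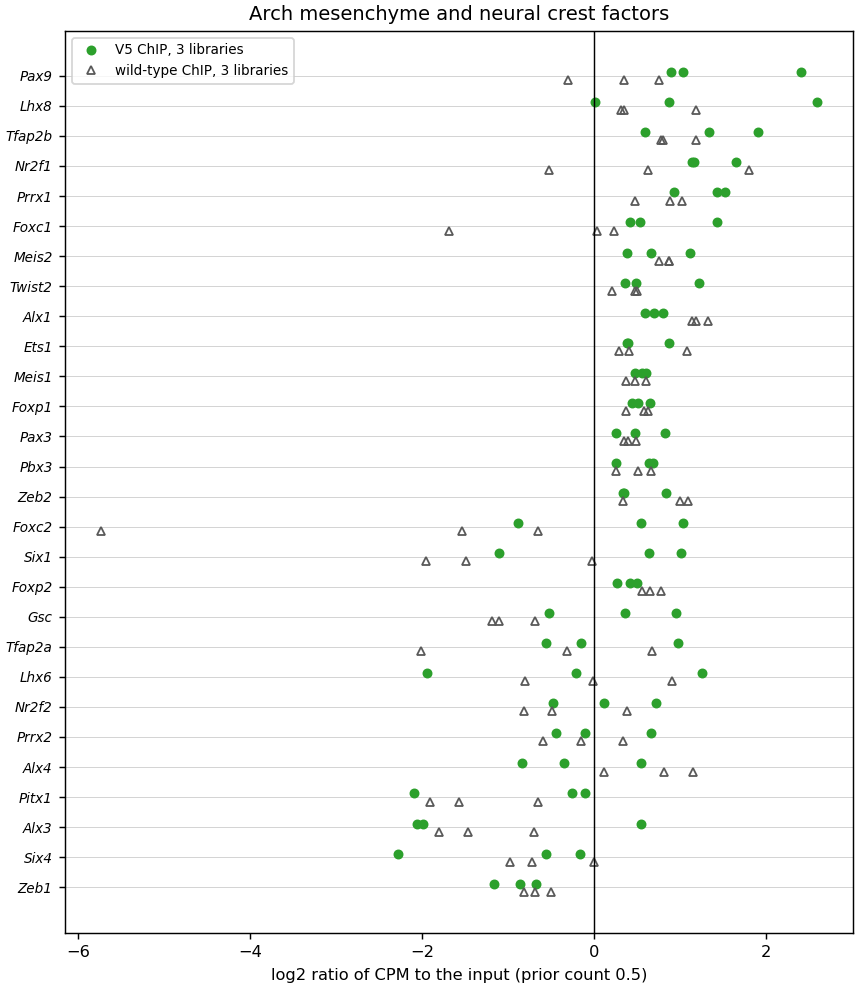
Log2 ratio of CPM to the input (horizontal, with a prior count of 0.5) for 28 of the 31 arch and neural crest factors with 70 or more counts, ordered by the V5 mean. Filled circles are the 3 V5 libraries and open triangles the 3 wild-type libraries. In 16 of these 28 genes all V5 circles lie right of 0, and genes with few reads, such as Foxc2, scatter on both sides.

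The homeobox genes of the Dlx and Hox families mostly held too few counts for this comparison. None of the 6 Dlx genes and 7 of 39 Hox genes reached 70 counts. All Dlx genes together held 41, 43 and 50 counts in V5, 15, 24 and 34 in wild type, with 69 in the input, so the ratios to the input were 2.57, 1.91 and 0.769 in V5 and 0.589, 0.914 and 0.686 in wild type. The V5 libraries thus lay on both sides of the input. Of the 7 Hox members, 0 lay above the input in all 3 V5 libraries and 1, Hoxd9, below. Hand2, a factor of the lower jaw, held 2, 1 and 17 counts in V5 and 12 in the input, and Hoxa2, which patterns the second arch, held 1, 1 and 16 in V5 and 3 in the input.

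T-box and arch artery genes gave 8 of 17 members above the input in all 3 V5 libraries and 1 below, with a median log2 ratio of 0.57. Wild type gave 7 above, 7 below and a median of 0.04. Summed over all listed genes, the ratio to the input was 1.39, 1.56 and 1.23 in V5. In wild type it was 1.23, 1.39 and 1.28, and the groups overlapped. Tbx1, a T-box gene of the pharyngeal mesoderm and endoderm that is counted over only 5.26 kb, had 16.1, 49.2 and 11 CPM in V5, 3.10, 9.79 and 2.79 in wild type, beside 10.3 in the input. Replicate 2 stood far above the other V5 libraries, and replicate 3 lay inside the input's interval of 7.23 to 14.3. Tbx15, which shapes the head skeleton, had 103, 116 and 88.8 against 57.0 (wild type 72.2, 122.8 and 92.2). Mef2c, a muscle and neural crest factor, had 100.4, 158 and 116 against 63.1 (wild type 126, 165 and 131), and Chd7, the remodeller mutated in CHARGE syndrome, had 138, 153 and 136 against 92.0 (wild type 134, 142 and 146). In the last 3 genes the V5 and wild-type values overlapped.

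Signalling genes of the arches were described by pathway. In the Hedgehog list 8 of 15 members lay above the input in all 3 V5 libraries and 0 below, with a median log2 ratio of 0.57. Wild type gave 7 above, 5 below and a median of 0.13. Summed over the list, the ratio to the input was 1.23, 1.53 and 1.28 in V5 and 1.28, 1.37 and 1.24 in wild type. These sums overlapped between the groups. Among the transcription factors of this pathway, Gli2 had 258, 278 and 172 CPM against 137 in the input (wild type 165, 199 and 184) and Gli3 had 191, 216 and 292 against 157 (wild type 308, 282 and 292). The receptor gene Ptch1 had 49.6, 58.9 and 31.9 against 31.2, so replicate 3 was level with the input. Hhip, which binds and sequesters the ligand, had 88.0, 138 and 81.5 against 57.6, and Disp1, which releases it, had 155, 168 and 177 against 92.9 (wild type 180.0, 157 and 149). Boc, Smo and Sufu were the other 3 above.

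In the FGF list 7 of 15 lay above and 3 below (wild type 5 and 5). The ligand gene Fgf10 had 55.8, 63.2 and 90.4 CPM against 39.0 in the input, and its wild-type values of 126, 100.2 and 98.2 all exceeded those of V5. Spred1, a feedback inhibitor, had 74.4, 141 and 74.2 against 36.7 (wild type 96.2, 37.7 and 87.0), and the ETS target genes Etv1 and Etv5 lay above while Etv4 lay below with 11.2, 8.78 and 9.43 against 13.8. In the endothelin list 4 of 9 lay above and 1 below (wild type 3 and 2): the receptor gene Ednra was level with the input, at 49.6, 49.2 and 54.2 against 54.2 CPM, while the G protein gene Gnaq had 174, 220.5 and 253 against 148 (wild type 327, 246 and 229). In the retinoic acid list 4 of 14 lay above and 1 below, beside 7 and 4 in wild type. Its receptor gene Rxra had the largest ratio, with 121, 103 and 82.2 CPM against 29.0 and 66.7, 62.5 and 51.5 in wild type. Every V5 value of Rxra exceeded every wild-type value, and neither comparison passed (edgeR adjusted p = 0.477 against the input and 0.961 against wild type).

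Other pathways lay closer to the share of all members. The BMP and TGF-beta list had 7 of 24 above and 3 below, the Wnt list 6 of 30 and 3, and the Notch list 5 of 18 and 3, with median log2 ratios of 0.18, 0.27 and 0.12. Wild type gave 12 above and 3 below in the BMP and TGF-beta list, 12 and 7 in the Wnt list, and 5 and 7 in the Notch list. The receptor gene Notch2 had 207, 164 and 134 CPM against 70.2 (wild type 140.4, 134 and 109), and the BMP receptor gene Bmpr1b had 131, 141 and 159 against 90.0 (wild type 153, 140.1 and 175). Bmpr1a, another type I receptor gene of the list, lay below with 37.2, 62.4 and 60.2 against 69.1 (wild type 90.8, 64.0 and 66.3). Acvr1, also a type I receptor gene, lay above the input in all V5 libraries. Of the Wnt genes, Rspo2, which strengthens the signal, had 179, 182 and 155 against 120.4 and the scaffold gene Axin1 had 39.7, 56.2 and 57.2 against 82.8. No member of these 7 pathway lists passed edgeR's test against the input.

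Lists of chromatin and transcription genes gave no excess above the input like that of the arch factors. Of 15 members that encode the MOZ complex and other MYST acetyltransferases, Kat6a and Jade1 lay above in all 3 V5 libraries, and Kat7, Kat8 and Ing4 below, with a list median of 0.02 (wild type 3 above, 5 below). Kat7, the acetyltransferase HBO1 that shares the BRPF scaffolds, had 33.5, 21.1 and 37.7 CPM against 53.3 in the input (wild type 56.6, 41.4 and 32.7). In the MLL-type methyltransferase list 4 of 14 lay above and 2 below (wild type 3 and 5); Kmt2d had 81.8, 77.3 and 42.0 CPM in V5, 23.3, 24.9 and 23.2 in wild type, beside 29.0 in the input, so the input lay between both groups. The Polycomb and remodeller list had 6 of 31 above and 8 below (wild type 6 and 13), the latter including Smarca4, Smarca5, Smarcb1, Smarcc1 and Smarcc2 of the BAF and ISWI remodellers. Suz12, a Polycomb subunit, was also below with 60.7, 31.6 and 59.0 against 96.3 CPM. RNA polymerase II, Mediator and elongation genes gave 4 of 34 above and 13 (38.2%) below, with a median of -0.22, beside 5 above, 12 below and -0.25 in wild type. The Mediator gene Med1 had 24.8, 31.6 and 35.3 CPM against 64.2 (wild type 36.5, 39.9 and 46.7).

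Housekeeping lists gave counts nearer to those of all members. Ribosome biogenesis genes had 7 of 31 above and 7 below, splicing factor genes 4 of 30 and 7, nuclear genes of mitochondrial respiration 4 of 25 and 4, and DNA replication, cyclin and p53 genes 9 of 36 and 6. Wild type gave 6 above and 9 below, 3 and 7, 2 and 8, and 5 and 17 in the same order. Short gene families were mostly outside the comparison: 6 of 83 ribosomal protein genes and 7 of 30 immediate early and heat shock genes were members, 1 and 0 of them above and 3 and 1 below. Zinc finger (Zfp) genes gave 43 of 314 above (13.7%) and 72 below (22.9%).

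**Figure D4:**
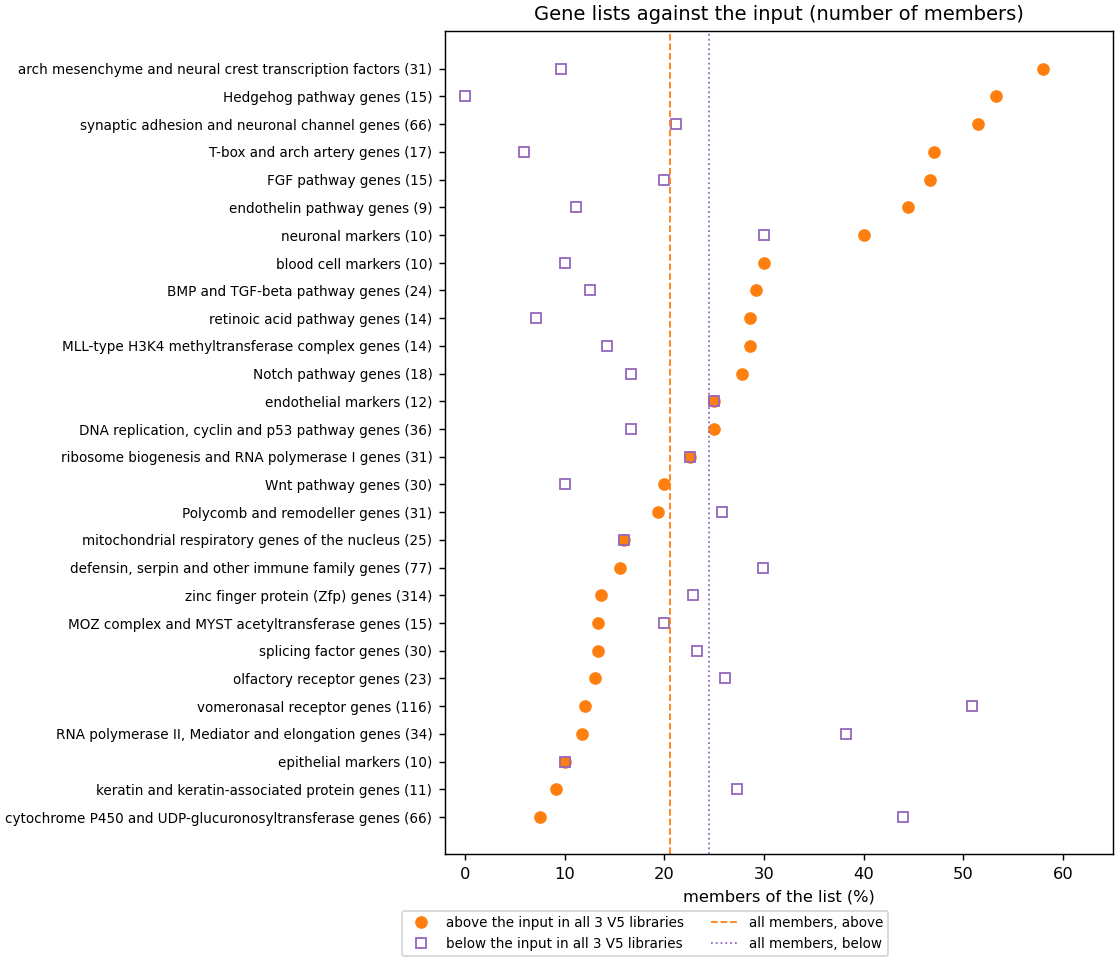
Share of the members of each gene list with 9 or more members (number of members in brackets) that lay above (filled circles) or below (open squares) the input in all 3 V5 libraries. Vertical lines give the shares over all members, 20.6% above (dashed) and 24.5% below (dotted). Arch and Hedgehog lists stand to the right for circles, and vomeronasal receptor and cytochrome P450 lists to the right for squares.

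Vomeronasal receptor and cytochrome P450 families lay below the input more often than all members, and olfactory receptor genes did not. Vomeronasal receptor genes, which encode pheromone receptors, gave 14 of 116 above and 59 (50.9%) below, with a median log2 ratio of -0.62. Wild type gave 30 above, 55 below and a median of -0.26. All 59 were Vmn2r genes, of which 113 were members, and the 3 Vmn1r members gave 2 above and 0 below. Vmn2r60 had 45.9, 80.8 and 62.7 CPM against 238 in the input (wild type 65.2, 103 and 65.9, edgeR adjusted p = 0.0759), while Vmn2r31 had 28.5, 26.4 and 28.0 against 6.02 (wild type 24.8, 12.8 and 18.4). Cytochrome P450 and UDP-glucuronosyltransferase genes, which metabolise steroids and drugs in adult liver, gave 5 of 66 above and 29 (43.9%) below. Wild type gave 11 above and 36 below. Of the 15 Cyp2c members 12 lay below and 0 above. Cyp2c66 had 24.8, 99.3 and 64.2 CPM against 184 (wild type 73.7, 51.2 and 53.9), and Cyp2j8 had 80.6, 77.3 and 70.6 against 209.8 (wild type 64.4, 66.3 and 61.1). Olfactory receptor genes, the largest sensory family, had only 23 members among 1125 listed genes, with 3 above (13.0%), 6 below (26.1%) and a median log2 ratio of 0.02. Summed over all 1125 genes, most of them under 70 counts, the ratio to the input was 1.44, 1.55 and 1.76 in V5 and 1.57, 1.55 and 1.83 in wild type, so every library lay above the input.

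The Skint genes, immunoglobulin-like genes of skin and thymus that sit in a cluster on chromosome 4, gave 9 of 11 members below and 0 above. They are part of a planned list of defensin, serpin and other immune family genes. That whole list gave 12 of 77 above (15.6%) and 23 (29.9%) below, with a median log2 ratio of 0.07. Its wild-type counts were 22 above and 35 below. Serpin genes gave 6 of 25 members above and 3 below. Skint4 had 70.7, 68.5 and 17.0 CPM in V5, 107, 85.1 and 107 in wild type, beside 229 in the input, with V5 replicate 3 the lowest of all. Summed over the 11 Skint members, the ratio to the input was 0.394, 0.391 and 0.201 in V5 and 0.455, 0.49 and 0.503 in wild type. Every V5 library lay below every wild-type library in this sum, and the V5 libraries entered the choice of members. Pseudogenes gave 21 of 142 above and 67 (47.2%) below, and genes without a symbol 42 of 341 above and 133 (39.0%) below. Near-identical copies can lose or share reads in mapping, so the values of single members of these families are uncertain. Of 7 members of the adult liver and pancreas list, which holds other genes, 4 lay above (Apob, Cps1, Pck1 and Pnlip) and 0 below. Apob, the main protein of low-density lipoprotein, had 62.0, 38.6 and 34.1 against 18.3 (wild type 42.7, 39.9 and 41.9).

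Among genes over 10 kb, the share above the input went up with length. Above in all 3 V5 libraries were 14.0% of members of 10 to 30 kb, 20.6% of 30 to 100 kb, 39.8% of 100 to 300 kb and 49.3% of those over 300 kb. The shares below were 25.8%, 25.2%, 19.8% and 23.0%. The wild-type share above also went up with length, with 1096 of 6215, 1321 of 5049, 849 of 1773 and 309 of 499 members. Below in wild type were 2043, 1512, 337 and 99 in the same order. Shorter genes did not follow this order, with 4 of 8 members above and 0 below up to 1 kb. Above were 17.1% at 1 to 3 kb and 14.6% at 3 to 10 kb, and below were 8.57% and 22.6%. Members up to 1 kb ran from 13.5 to 102 CPM per kb in the input, the same limits as the 14 mitochondrial genome members. The 1 to 3 kb class shared its highest input level, 124 CPM, with the mitochondrial genes. In these short classes, length and mitochondrial origin cannot be told apart. Longer genes hold more counts, which narrows their counting error. Summed over all 3 to 10 kb genes the ratio was 1.04, 1.13 and 1.01 in V5 and 0.928, 0.939 and 0.928 in wild type. Over 300 kb it was 1.06, 1.04 and 1.06 in V5 and 1.08, 1.09 and 1.12 in wild type, so the long genes as a sum lay near the input. Synaptic adhesion and neuronal channel genes, with a median length of 794 kb, gave 34 of 66 above and 14 below (wild type 44 and 9). Nrxn3, a presynaptic adhesion gene, had 1335, 1466 and 1524 CPM against 971 (wild type 1463, 1477 and 1641). Chl1, a neural adhesion gene at chr6:103510584-103733038, had 24802, 24136 and 115201 counts in V5 and 208194 in the input, or 3.07%, 2.12% and 3.51% of the ChIP libraries against 5.97%. With 269 CPM per kb in the input, it stood far from the median of 0.933 over all members. The log2 difference was -1.01 (SE 0.38) with an edgeR adjusted p of 1.00.

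**Figure D5:**
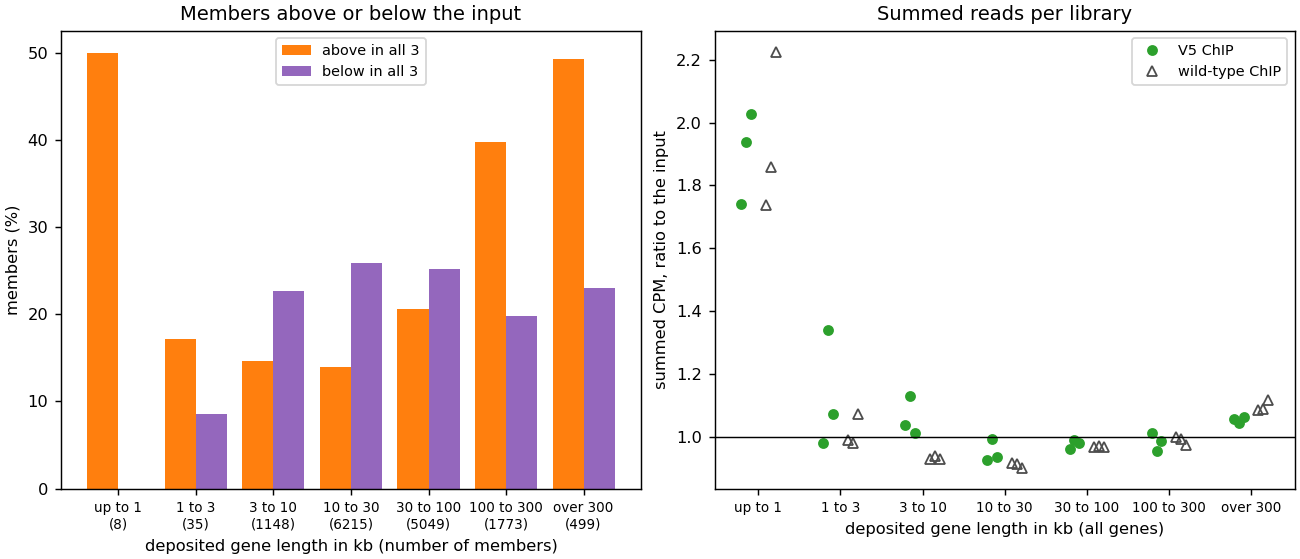
Left, share of members (%) above or below the input in all 3 V5 libraries by deposited gene length in kb, with the number of members in brackets. Right, summed CPM of all genes of each length class as a ratio to the input, for the 3 V5 libraries (circles) and the 3 wild-type libraries (triangles). The share above goes from 14.0% at 10 to 30 kb to 49.3% over 300 kb. It covers 4 of the 8 members up to 1 kb, whose range of input CPM per kb is that of the mitochondrial genome genes. The 3 to 10 kb sums are 1.01 to 1.13 in V5 and 0.928 to 0.939 in wild type.

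Genes of the mitochondrial genome gave larger shares of the ChIP libraries than of the input. Their summed ratio was 1.04, 2.03 and 1.82 in V5 and 1.91, 1.70 and 2.54 in wild type, and 6 of 14 members lay above in all 3 V5 libraries and 0 below. The ribosomal RNA gene mt-Rnr1 had 70.7, 152 and 116 CPM against 33.5 (wild type 151, 85.1 and 164, edgeR adjusted p = 0.489). Chromosome X gave 0.895, 0.873 and 0.907 in V5 and 0.919, 0.614 and 0.976 in wild type, with 32.5% of its 541 members below in all 3 V5 libraries. Chromosome 6, which carries Chl1, gave 0.773, 0.693 and 0.828. The other autosomes had V5 means from 0.971 to 1.17.

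The density of reads in the input itself went closely with the side on which a gene lay. Members above the input in all 3 V5 libraries had a median of 0.671 CPM per kb of deposited length in the input and 1.08 in V5. Members below had 1.35 in the input and 0.788 in V5, and all members had 0.933 and 0.941. For the 8 genes that fell the input density was 2.16 CPM per kb, while that of V5 was 1.04 and that of wild type 1.09, near the medians of all members. The 31 arch factors had 0.697 in the input, 1.05 in V5 and 0.94 in wild type. For the 15 Cyp2c genes the input density was 1.89 and for the 11 Skint genes 2.26, with V5 at 1.02 and 0.845. When members were put into 10 equal groups by input density, 50.5% of the group of lowest density lay above in all 3 V5 libraries and 1.29% below. In the group of highest density 2.72% lay above and 68.7% below. In the group with a median of 0.700 CPM per kb, near that of the arch factors, 36.1% lay above and 3.87% below. Wild type gave 64.8% above and 2.04% below in the lowest group, and 2.51% above and 82.5% below in the highest. The input enters both the density and the ratio, so part of this order is arithmetic, and 1 input library cannot show how much of its density would recur in another.

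Set directly against the wild-type ChIP, which removes the input from the comparison, no member passed the test. edgeR gave 0 of 14727 genes at an adjusted p under 0.05 (0.0%), a smallest adjusted p of 0.961 and 661 genes (4.49%) at an unadjusted p under 0.05, of which 456 were higher in V5. With the replicate number as a block, 299 of 586 were higher. Genes were selected on V5 and input counts and not on wild-type counts. DESeq2 called 1 gene. The V5 and wild-type comparisons share the 1 input, so their ratios are given side by side and not correlated. Of 77 gene classes whose summed ratios were compared between the 3 V5 and 3 wild-type libraries by a two-sided exact permutation test, 17 had groups that did not overlap, 7 higher and 10 lower in V5. The smallest p that 3 against 3 libraries allow is 0.1, and the smallest adjusted p over the 77 classes was 0.453.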

How the data were processed

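The authors deposited raw read counts per gene for each library, as whole numbers beside the gene's identifier and length. The submitters' processing notes name bcl2fastq, featureCounts, MACS and mm10 without versions or roles, and the sources used here give no aligner, filter, strand or overlap setting. No peak list was analysed here. Symbols and coordinates came from RefSeq GRCm38.p6 through the gene identifiers, which gave 25275 of 27179 genes a symbol. All count columns matched a sample label.

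Libraries were grouped as 3 V5 ChIP, 3 wild-type ChIP and 1 V5 input. The members and gene lists were chosen with earlier results of these data known. From the counts, CPM were computed on library totals, and log2 ratios with a prior count of 0.5 scaled to library size. Genes with 70 or more counts over the 4 V5 and input libraries were tested with edgeR 4.0.16 (quasi-likelihood, robust, TMM, Benjamini-Hochberg over all 14727 genes, R 4.3.3), two-sided, at an adjusted p under 0.05. The 3 ChIP libraries were set against 1 input, so the spread came from the ChIP libraries alone. A gene was called above or below the input when all 3 V5 values were on that side. Intervals of input counts are exact 95% Poisson intervals and cover counting error only, as do the floors of 3 counts. Sums of gene classes were taken over all genes of a class, members or not.

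Named genes were, in each direction, the 12 protein-coding genes of smallest edgeR p and the 10 of largest least-of-3 ratio, among genes whose 3 ratios share a sign and whose span overlaps no other gene by more than 50%. To these came a fixed set (Kat6a, Chl1, Tbx1, the Dlx genes, Hand2, Hoxa2, Meis1, Meis2, Kmt2d), up to 4 members of smallest p of each list and 4 genes of other types. The arch list was counted whole; some genes under the rule are not reported here. Acvr1, Bmpr1a, Boc, Ednra, Etv4, Etv5, Ing4, Jade1, Ptch1, Smo, Sufu and the 5 named Smarc genes, and the grouping by input density, were chosen after their values were seen. The Skint, Serpin, Cyp2c, Vmn1r and Vmn2r groups and the other genes named around Kat6a were not among the planned lists. The fits were tested on simulated counts with known changes. Alternatives were library totals, DESeq2 1.42.0 size factors and Wald test, the likelihood ratio test, and other filters and margins. Further alternatives were all 7 libraries, thinning to the shallowest library and leaving out each V5 library. Against the input, the Wald test gave an adjusted p for 2735 of the 14727 genes.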

Additional observations from a re-analysis of the deposited data

Results flagged for a closer look

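In 3 gene classes and 3 named genes all V5 libraries lay on one side of the input and all wild-type libraries on the other. None of these differences between V5 and wild type passed a test, and both groups share the 1 input. The naming rules took in 189 genes, chosen in part by their V5 values against the input. The share of all members with such a split is not given here, so the 3 genes cannot be set against it. The summed level of ribosome biogenesis and RNA polymerase I genes was 1.15 times as high in V5 as in wild type, with ratios to the input of 1.09, 1.18 and 1.03 in V5 and 0.938, 0.968 and 0.967 in wild type. For all 5954 genes of 3 to 10 kb the V5 mean was 1.14 times the wild-type mean. Chromosome 10 went the other way, at 0.976 times, with V5 ratios of 0.973, 0.991 and 0.993 and wild-type ratios of 1.00, 1.01 and 1.02. Each of these 3 sums gave a p of 0.1 by exact permutation, two-sided, over 3 and 3 libraries, the smallest it allows, and 0.453 after adjustment over 77 classes.

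Among genes, Tbx1 had 4.86 times the wild-type level in V5 (edgeR adjusted p = 0.961), from 13, 56 and 36 counts in V5, 4, 13 and 7 in wild type, with 36 in the input. Without V5 replicate 2 it was 2.59 times. Rrp9, which acts in ribosomal RNA processing, had 15 times the wild-type level (edgeR adjusted p = 0.961). Its values were 85.5, 14.9 and 10.3 CPM in V5, 3.10, 1.51 and 2.79 in wild type, with 8.89 in the input. V5 replicate 1 set most of this ratio, and without it the ratio was 5.12. The floors in wild type were 2.33, 2.26 and 1.20 CPM. Wild-type replicate 2 thus lay under its floor, and both ratios divide by a level from few reads. Kmt2d had 2.82 times the wild-type level (edgeR adjusted p = 0.961), with 66, 88 and 138 counts in V5, 30, 33 and 58 in wild type, with 101 in the input. Without 1 V5 library the ratio for Kmt2d was 2.51 to 3.35. These leave-one-out ratios were chosen after seeing the data.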

How the results depend on the processing

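The count of 0 higher genes against the input became 1 with library totals alone, 2 with DESeq2, 3 without a filter on low counts, 2 with all 7 libraries in the fit and 4 to 20 without 1 V5 library. The count of 8 lower genes became 22 with library totals, 0 with DESeq2 size factors, 13 with DESeq2, 0 with the likelihood ratio test, 30 without a filter, 19 with 200 counts, 30 with all 7 libraries and 10 to 78 without 1 V5 library. Against wild type, 0 higher genes became 1 with DESeq2, 9 without a filter and 0 to 2 without 1 V5 library. The 3037 genes above the input in all 3 V5 libraries became 627 at a margin of 1.5-fold and 3831 to 4955 without 1 V5 library, since fewer libraries then have to lie on one side. The 3609 genes below the input in all 3 became 2221 with 200 counts, 905 at 1.5-fold and 4803 to 5082 without 1 V5 library. The 170 genes 2-fold above the input in all 3 became 56 with 200 counts, 338 with 20 counts, 290 after thinning to the shallowest library (an alternative chosen after seeing the data) and 329 to 508 without 1 V5 library. The 303 genes 2-fold below the input in all 3 became 169 with 200 counts, 602 with 20 counts and 447 to 1268 without 1 V5 library. The summed ratio over 300 kb of 1.05 became 1.08 with TMM, 1.02 without the gene over 1% of the input and 1.25 without the 200 genes of highest input; that of chromosome X, 0.892, became 0.914, 0.864 and 0.922. The 200 genes were ranked by the input, the divisor of the ratio, so leaving them out tends to raise the ratio by construction. Beyond these constructions, the cause was not tested. The count of 18 arch factors above ranged from 16 to 22.

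No paired analysis was possible because the input is 1 library with no matching replicate. For V5 against wild type, same-numbered libraries had correlations of 0.0136, 0.00793 and 0.0609 between their deviations. Pairs with different numbers had -0.0464 to 0.0240. Counting error pulls such values toward 0, so they cannot tell whether same-numbered libraries share more than a number. The replicate block gave 0 calls and a smallest adjusted p of 0.0650, with 586 genes at an unadjusted p under 0.05 against 661 without it. TMM moved the median log2 ratio of all members by 0.03. Depth limits genes near 70 counts, where V5 replicate 1 resolves no level under 3.72 CPM, and 1 input gives no measure of its own spread.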

Other observations

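Base composition at the gene start was compared with the side of the input, in windows from 250 bases before to 50 after the start. Of 10661 protein-coding members with a window (chromosome 18 not used here), put into 4 equal groups by GC content, 19.9% of the lowest group lay above the input in all 3 V5 libraries and 28.5% below. In the highest group 25.2% lay above and 21.1% below. The middle groups had 501 of 2697 and 519 of 2640 above, so the share did not rise step by step. The highest group was also longer, with a median of 43.8 kb against 27.2 kb in the lowest. Wild type had 726 of 2688 above in the lowest group and 758 of 2636 in the highest. By the ratio of observed to expected CpG, the lowest of 4 groups had 19.9% above and 27.8% below, and the highest 22.2% and 23.5%. Here the middle groups had 573 of 2661 and 522 of 2665 above. Markers of other cell types gave few members: of 10 neuronal genes 4 lay above and 3 below, of 12 endothelial genes 3 and 3, of 10 blood cell genes 3 and 1, and of 10 epithelial genes 1 and 1.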
